A study of Chlorocebus sabaeus with 10 samples.

Results

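The 47 genes described here encode the machinery that carries a newly made secretory protein into the endoplasmic reticulum (ER), attaches N-linked sugars to it and moves it to the Golgi. They were chosen by function, from a list drawn up when earlier results of these data were known, and each was looked up by gene symbol in the deposited transcript table. Of the 47, 43 were found, each with 1 transcript, and 42 had enough counts to be tested, out of 7948 transcripts tested and 28078 in the table. SRP9, SRP14, SSR3 and SAR1A were not matched by symbol and were not analysed here. COPB2 had only 2 to 16 counts per animal and was not tested. The samples were liver biopsies of 10 female vervet monkeys (Chlorocebus sabaeus, an Old World primate), described by the study as age-matched. All had eaten chow beforehand, after which 5 received a high fructose (HFr) diet and 5 stayed on chow for 6 weeks. Mean age in the study was higher on HFr than on chow, though not significantly, and its part in these results was not tested. Each animal gave 1 RNA-Seq library of polyadenylated RNA and is named here by diet and number, as in HFr 1 or chow 1.

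Hepatocytes secrete albumin, clotting factors, apolipoproteins and most other plasma proteins, so this pathway is heavily used in liver. The signal recognition particle (SRP) binds the signal peptide of a growing chain and docks at the SRP receptor, the chain threads through the SEC61 channel with help from the translocon-associated protein (TRAP) complex, signal peptidase removes the signal peptide, and oligosaccharyltransferase (OST) transfers a preassembled sugar tree to asparagine residues. Folded cargo leaves in vesicles with a COPII coat, often gripped by cargo receptors, while vesicles with a COPI coat carry receptors and escaped ER proteins back.

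Total estimated counts per animal lay between 2977280 and 4992500, of which 34.7% to 73.6% were on mitochondrial transcripts, leaving 864571 to 2657103 counts for nuclear ones. The mitochondrial percent ran from 41.8 to 67.8 on HFr and over a wider range on chow, from 34.7 to 73.6, with the lowest and the 2 highest libraries on chow (means 55.5 and 55.4). A normalized count here is an estimated count per 1000000 counts of the library (CPM), with library sizes scaled by edgeR's TMM method. It is not corrected for transcript length, so values are compared between animals and not between genes. Hepatocyte markers were abundant, with 8 of 9 listed genes found and a summed level of 49678 to 74851 normalized counts on HFr and 40556 to 81537 on chow. The summed levels of plasma cell (187.8 to 639 on HFr, 258 to 803 on chow), macrophage (40.8 to 174, and 44.6 to 192), lymphocyte (18.3 to 29.3, and 16.8 to 23.3), cholangiocyte (5.96 to 27.4, and 10.04 to 31.8), stellate cell and fibroblast (222 to 404, and 178 to 821), endothelial (305 to 418, and 239.5 to 421) and blood cell (100.3 to 333, and 60.7 to 343) markers overlapped between the diets. The plasma cell sum rested on JCHAIN and SDC1 (means 290 and 120 over all animals), whose log2 fold changes were -0.50 and 0.16. The other listed plasma cell markers had means of at most 1.74. Of the stellate cell and fibroblast markers, ACTA2, a marker of activated stellate cells and smooth muscle, had 5.17 ± 2.23 (SD, n = 5) normalized counts on HFr and 15.8 ± 10.4 (SD, n = 5) on chow. This was a difference of -1.57 on the log2 scale (standard error 0.49, edgeR's unadjusted p = 0.00646, adjusted p = 0.9996), and 0 of 5 HFr animals were above the chow mean. Of the 6 tested markers of this list, only ACTA2 had an unadjusted p under 0.05, and no tested marker of the other lists had one. Among all tested transcripts, 2.23% were lower at that threshold. COL1A1 went the other way (log2 fold change 0.20). COL1A2, PDGFRB, DCN and LUM had -0.22, -0.27, -0.43 and -0.62, with edgeR's unadjusted p from 0.255 to 0.549. The part of ACTA2 in the results for the pathway genes was not tested. Skeletal muscle markers summed to at most 2.21, with CKM and MYH2 at 0 in every animal. In such bulk tissue, fewer cells of a type and less RNA per cell cannot be told apart. No batch was given in the labels, and p-values set the difference between the diets against the spread between these animals.

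No difference between the diets passed adjustment for these genes. In edgeR's quasi-likelihood test, LMAN2 and SEC61G were higher on HFr and none was lower at an unadjusted p under 0.05, where 2.06% of all tested transcripts were higher and 2.23% lower. In either direction the background was 4.29%, and 2 of 42 is close to it. None of the 42 had an adjusted p under 0.05 (the smallest was 0.9996), nor did any other tested transcript (0%, smallest adjusted p = 0.872). In none of the 42 were all HFr animals above or all below all chow animals, against 0.214% and 0.327% of tested transcripts. The log2 fold change was above 0 in 30 of 42, against 49.8% of tested transcripts, with a median of 0.048 against -0.00069 over all transcripts. Fold changes ran from -0.47 for SEC62 to 0.52 for LMAN2, and 34 of 42 lay within 0.25 of 0. The median SD of log2 normalized counts between animals of a diet was 0.32 for these genes and 0.36 for all tested transcripts.

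**Figure D1:**
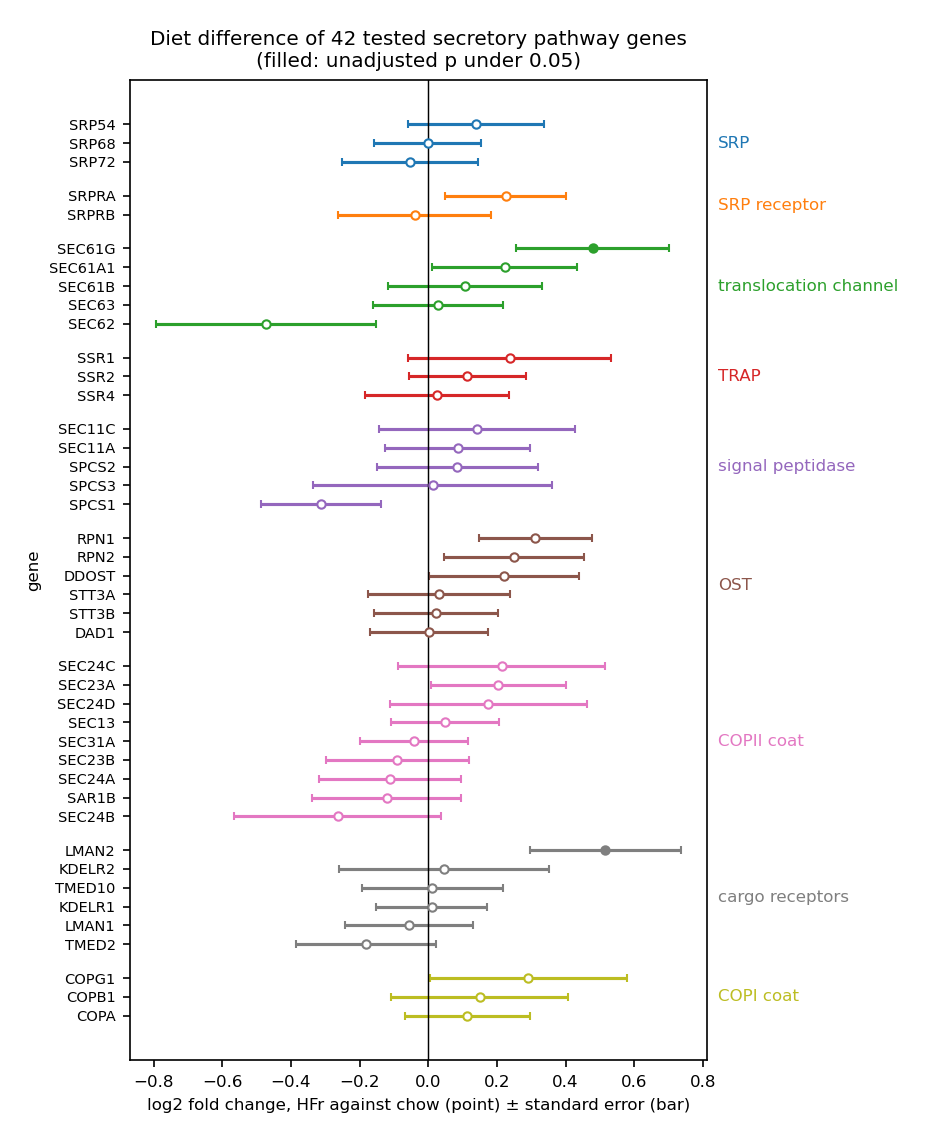
Log2 fold change on HFr against chow of the 42 tested genes, grouped by role (points), with the standard error as a bar (5 animals per diet). Only LMAN2 and SEC61G (filled) had an unadjusted p under 0.05, and most points lie within 0.25 of 0.

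Among the SRP proteins, 1 of 3 tested had a log2 fold change above 0 (2 of 3 under DESeq2 or library size only, where SRP68 turned), and none passed the test. SRP72, which pairs with SRP68 in the particle, had 54.6, 27.9, 34.5, 28.5 and 31.1 normalized counts in HFr 1 to 5 and 32.9, 33.9, 34.8, 39.2 and 41.99 in chow 1 to 5. A single animal, HFr 1, stood above the rest, and the log2 fold change was -0.054 (standard error 0.20). SRP54, the subunit that binds signal peptides, had 40.4, 31.4, 38.5, 24.1 and 39.7 in HFr 1 to 5 and 21.6, 32.2, 36.6, 30.1 and 37.4 in chow 1 to 5. These ranges overlapped widely, with a log2 fold change of 0.14 (standard error 0.20). SRP68 lay between 23.4 and 35.1 over the 10 animals (log2 fold change -0.0019). The receptor subunit SRPRA had 118, 100.5, 89.8, 68.4 and 90.99 on HFr and 69.00, 79.4, 95.1, 75.8 and 79.4 on chow. It lay above the chow mean in 4 of 5 HFr animals (log2 fold change 0.23, standard error 0.18), but its lowest value was also on HFr. SRPRB, which anchors the receptor in the membrane, ranged from 12.8 to 35.2 (mean 24.3, log2 fold change -0.040).

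Of the 5 genes of the translocation channel, 4 had a log2 fold change above 0. SEC61G, the small gamma subunit of the channel, lies on chromosome 21 of ChlSab1.1 from 4114916 to 4122123. It had 35.6, 26.1, 35.3, 23.2 and 18.1 normalized counts in HFr 1 to 5 and 14.8, 17.4, 26.2, 18.1 and 21.5 in chow 1 to 5. HFr 1 and HFr 3 were above every chow animal, while HFr 5 was in the lower part of the chow range. Means of 27.6 ± 7.66 (SD, n = 5) on HFr and 19.6 ± 4.42 (SD, n = 5) on chow stood behind a log2 fold change of 0.48 (standard error 0.22), for which edgeR gave an unadjusted p = 0.0493 and an adjusted p = 0.9996. A two-sided exact permutation test of log2(normalized count + 1) gave p = 0.0794. SEC61G stayed under 0.05 before adjustment in 9 of 23 alternative analyses, which are not independent of one another. Its unadjusted p in edgeR was 0.140, 0.0624 and 0.136 without HFr 1, 2 or 3, and 0.120, 0.0961, 0.0913 and 0.0595 without chow 1, 2, 4 or 5. The pore-forming subunit SEC61A1 ranged from 35.1 to 74.2 (mean 56.6) with a log2 fold change of 0.22, and SEC61B ranged from 39.5 to 79.7 (mean 57.4) with 0.11. Thus the 3 subunits of the channel all had positive estimates, but SEC61A1 and SEC61B did not pass the test.

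SEC62, a membrane protein that helps import short precursors and also acts in the removal of excess ER, had the lowest fold change of all members. It lies on chromosome 15 from 19403526 to 19431747 and had 115, 62.8, 144, 86.3 and 83.7 in HFr 1 to 5 and 86.7, 77.2, 103, 175 and 242 in chow 1 to 5. Only chow 5 and chow 4 exceeded all HFr animals. The means were 98.4 ± 31.6 (SD, n = 5) on HFr and 137 ± 70.4 (SD, n = 5) on chow. With so wide a spread, the log2 fold change of -0.47 (standard error 0.32) did not pass the test (edgeR, unadjusted p = 0.163). SEC63, its partner, which recruits the chaperone BiP to the channel, ranged from 36.0 to 63.6 (mean 48.4, log2 fold change 0.030).

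The 3 TRAP genes found, which help chains engage the channel, had positive estimates, and none passed the test. SSR1 had 8.98, 4.01, 10.02, 7.06 and 9.43 on HFr and 4.54, 7.83, 5.83, 10.04 and 5.48 on chow (log2 fold change 0.24, standard error 0.30). SSR4 had 71.5, 63.3, 64.9, 75.3 and 59.5 on HFr and 43.6, 80.9, 50.1, 92.9 and 62.1 on chow, so that the chow animals spanned the wider range (log2 fold change 0.026, standard error 0.21). SSR2 ranged from 44.7 to 79.7 (mean 65.2, log2 fold change 0.11).

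In signal peptidase, SPCS1 had a negative estimate and the other 4 genes positive ones. SPCS1, a small noncatalytic subunit at 14077887 to 14080560 on chromosome 22, had 54.3, 68.4, 62.5, 55.2 and 71.9 in HFr 1 to 5 and 61.3, 85.7, 98.4, 66.8 and 75.8 in chow 1 to 5. Every HFr animal was below the chow mean, yet chow 1 and chow 4 lay within the HFr range. The means were 62.5 ± 7.83 (SD, n = 5) and 77.6 ± 14.9 (SD, n = 5), giving a log2 fold change of -0.31 (standard error 0.18). This did not pass the test (edgeR, unadjusted p = 0.0944), except without chow 1, when the log2 fold change was -0.39 and edgeR's unadjusted p = 0.0467. The catalytic subunits SEC11A and SEC11C ranged from 11.2 to 22.4 (mean 14.96) and from 17.7 to 47.2 (mean 28.8), with log2 fold changes of 0.086 and 0.14. SPCS2, with a range of 30.01 to 71.9 (mean 49.3), and SPCS3, with 2.21 to 8.23 (mean 4.72), had log2 fold changes of 0.085 and 0.012.

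All 6 OST genes had log2 fold changes above 0, with a median of 0.13, and none passed the test (DAD1 was below 0 with RLE size factors or without mitochondrial transcripts). RPN1, ribophorin I, which presents some substrates to the catalytic core, lies on chromosome 22 from 52391813 to 52417575. It had 78.98, 78.4, 75.7, 66.6 and 77.04 in HFr 1 to 5 and 55.4, 56.6, 62.1, 49.2 and 80.3 in chow 1 to 5. The HFr animals were all above the chow mean, but chow 5 was the highest of the 10. Means were 75.4 ± 5.04 (SD, n = 5) on HFr and 60.7 ± 11.9 (SD, n = 5) on chow. For its log2 fold change of 0.31 (standard error 0.17), edgeR gave an unadjusted p = 0.0802, whereas the two-sided exact permutation test gave p = 0.0476, not adjusted for the number of genes. STT3B, a catalytic subunit, had 80.9, 68.4, 73.7, 48.1 and 83.9 on HFr and 59.2, 72.7, 79.8, 63.8 and 73.5 on chow (log2 fold change 0.023, standard error 0.18). The other catalytic subunit, STT3A, ranged from 8.01 to 14.7 (mean 11.2) and had a log2 fold change of 0.031. Of the noncatalytic subunits, RPN2 (20.5 to 48.3, mean 31.7) and DDOST (18.03 to 39.3, mean 25.8) had log2 fold changes of 0.25 and 0.22, and DAD1 (29.8 to 44.2, mean 38.5) had 0.0020.

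The COPII coat genes were split, with 4 of 9 above 0 and a median log2 fold change of -0.042. SEC31A, of the outer coat, had 171, 139, 152, 145 and 159 on HFr and 142, 143, 160.5, 182 and 163 on chow. The diets overlapped over most of this range (log2 fold change -0.042, standard error 0.16). SEC24B, one of the 4 adaptors that select cargo, had 9.73, 8.02, 3.21, 7.50 and 7.47 on HFr and 8.63, 8.70, 12.9, 7.53 and 4.56 on chow. The fold change, at -0.26 (standard error 0.30) on the log2 scale, was smaller than its standard error. The other adaptors SEC24A (30.9 to 57.6, mean 44.4), SEC24C (4.11 to 13.7, mean 8.96) and SEC24D (11.6 to 27.7, mean 19.4) had log2 fold changes of -0.11, 0.21 and 0.17. SAR1B, the GTPase that starts coat assembly and is required for export of large lipoproteins, ranged from 62.9 to 141 (mean 87.6, log2 fold change -0.12), with the highest value in chow 3. The inner coat genes SEC23A (35.7 to 67.1, mean 52.4) and SEC23B (9.13 to 16.9, mean 13.7) had 0.20 and -0.090, and SEC13 (28.8 to 43.05, mean 37.1) had 0.049.

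Of the cargo receptors, LMAN2 had the largest fold change of all 42 genes. LMAN2 encodes VIP36, a lectin that binds high-mannose sugars on cargo and cycles between ER and Golgi, and lies on chromosome 23 of ChlSab1.1 from 79336997 to 79358421. It had 80.9, 62.2, 60.9, 74.8 and 70.6 normalized counts in HFr 1 to 5 and 30.2, 61.6, 59.6, 58.7 and 33.8 in chow 1 to 5. Chow 1 and chow 5 were far below the rest, and of the other 3 chow animals only chow 2 reached into the HFr range, so the groups overlapped narrowly. Means were 69.9 ± 8.44 (SD, n = 5) on HFr and 48.8 ± 15.4 (SD, n = 5) on chow, and 5 of 5 HFr animals were above the chow mean. The log2 fold change was 0.52 (standard error 0.22), for which edgeR gave an unadjusted p = 0.0333 and an adjusted p = 0.9996. A two-sided exact permutation test gave p = 0.0159, where the smallest possible is 0.00794. LMAN2 stayed under an unadjusted 0.05 in 17 of 23 alternative analyses, which are not independent of one another, with log2 fold changes from 0.38 to 0.62. It was lost with library size only (edgeR, unadjusted p = 0.208), without HFr 1, 4 or 5 (0.0787, 0.0607 and 0.0518) and without chow 1 or 5 (0.0823 and 0.0887).

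The remaining receptors had smaller estimates, none with an unadjusted p under 0.05 in edgeR, and their standard errors lay between 0.16 and 0.31. TMED2, a p24 protein of COPI and COPII vesicles, had 107, 77.98, 90.6, 57.6 and 109 on HFr and 76.3, 96.2, 118, 114 and 97.2 on chow, with HFr 4 lowest (log2 fold change -0.18, standard error 0.20). LMAN1 (ERGIC-53, the receptor of clotting factors V and VIII) ranged from 49.0 to 82.7 (mean 65.1, log2 fold change -0.057), and TMED10, the partner of TMED2, from 53.3 to 101.8 (mean 78.04, log2 fold change 0.012). KDELR1 and KDELR2, which return ER proteins that carry a KDEL signal, ranged from 41.7 to 62.5 (mean 53.1) and from 5.45 to 17.9 (mean 10.8), with log2 fold changes of 0.0099 (below 0 with library size only) and 0.046.

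In the COPI coat, the 3 tested genes had positive estimates and none passed the test. COPA had 95.4, 67.3, 86.2, 70.4 and 94.5 on HFr and 61.1, 70.05, 71.04, 97.9 and 83.1 on chow, where chow 4 was the highest animal (log2 fold change 0.11, standard error 0.18). COPG1 had 11.2, 13.6, 11.2, 5.96 and 15.3 on HFr and 5.90, 10.2, 11.5, 13.1 and 6.39 on chow, with HFr 4, chow 1 and chow 5 apart from the other 7 (log2 fold change 0.29, standard error 0.29). COPB1 ranged from 12.02 to 30.5 (mean 17.4, log2 fold change 0.15), the top value being in HFr 2.

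Some members lie within 1000000 bases of each other, which the choice of genes did not use, and all 5 such pairs of neighbours are given here. COPG1 (51787340 to 51812026), RPN1 (52391813 to 52417575) and SEC61A1 (52976872 to 52992039) lie on 1 stretch of chromosome 22 of ChlSab1.1, and their log2 fold changes were 0.29, 0.31 and 0.22. SAR1B (37406770 to 37444447) and SEC24A (37448641 to 37524521) lie close together on chromosome 23 and had -0.12 and -0.11. LMAN1 (20377255 to 20409741) and SEC11C (20569115 to 20588093) on chromosome 18 had -0.057 and 0.14, and STT3A (116734393 to 116762231) and SRPRA (117387044 to 117394415) on chromosome 1 had 0.031 and 0.23. None of these genes passed the test, and the ranges do not overlap one another.

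**Figure D2:**
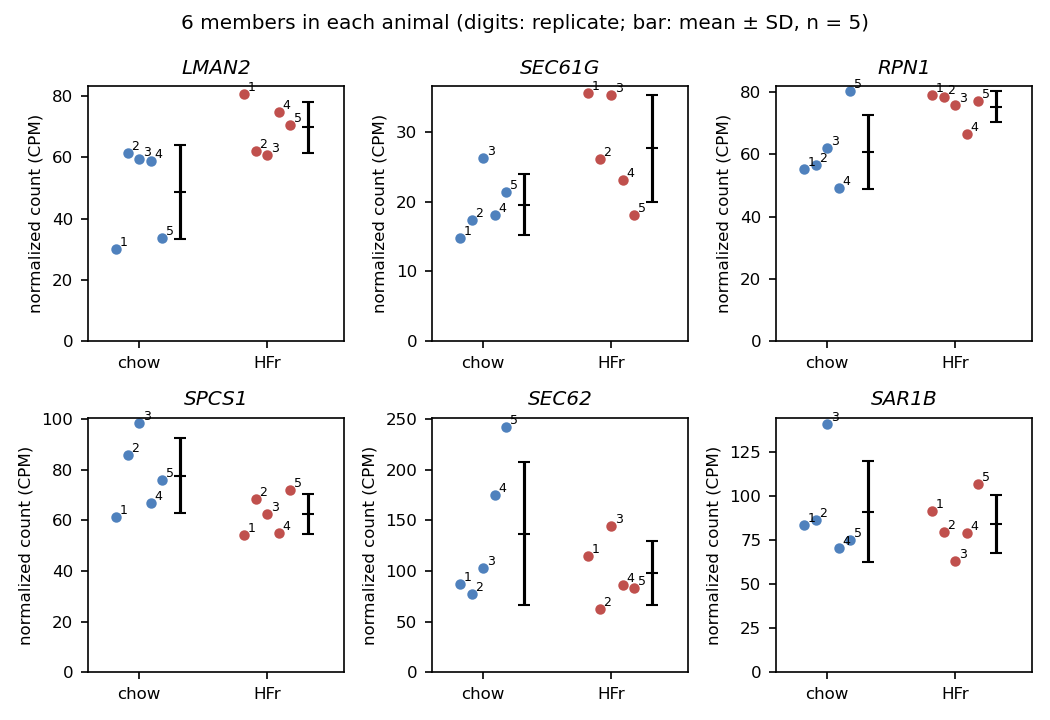
Normalized count (CPM) of 6 genes in each animal, with the replicate number beside each point and mean ± SD (bars, n = 5) to the right of each diet. LMAN2 is low in chow 1 and chow 5, SEC62 is high in chow 4 and chow 5, and in all 6 panels the diets overlap.

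After TMM scaling, most of these genes were high or low together in some animals. In particular, HFr 1 was above the mean of the 10 animals for 39 of 42 genes (92.9%) and the highest animal for 15, although only 50.9% of all tested transcripts were above their own mean in HFr 1. Chow 1 was above the mean for 4 of 42 (9.52%) and the lowest for 13, against 52.2% of all tested transcripts. HFr 4 was above it for 8 of 42 (19.0%, against 49.9%), and HFr 5 and chow 3 each for 32 of 42 (76.2%). The mean deviation over the genes was 0.27 in HFr 1, 0.18 in chow 3, -0.23 in HFr 4 and -0.31 in chow 1 on the log2 scale. The pattern was not particular to the 42 genes. Of 76 other tested genes of the pathway, listed below, 68.4% were above their own mean in HFr 1 and 28.9% in chow 1. The percent was 65.8 in HFr 5, 57.9 in chow 3 and 40.8 in HFr 4. Their mean deviation was 0.12 in HFr 1 and -0.14 in chow 1, but lowest in chow 5 (-0.17). As a share of nuclear counts, which does not use TMM, the 43 genes took 0.522% in HFr 1 (the highest) and 0.395% in HFr 4 (the lowest), but 0.442% in chow 1, above the 0.425% of chow 2. By this share chow 3 (0.449%) and HFr 5 (0.453%) were below the median of 0.457%, so the place of chow 1, chow 3 and HFr 5 among the animals depended on the scaling, while HFr 1 and HFr 4 stayed highest and lowest. This share was 0.461% ± 0.046 (SD, n = 5) on HFr and 0.454% ± 0.023 (SD, n = 5) on chow.

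**Figure D3:**
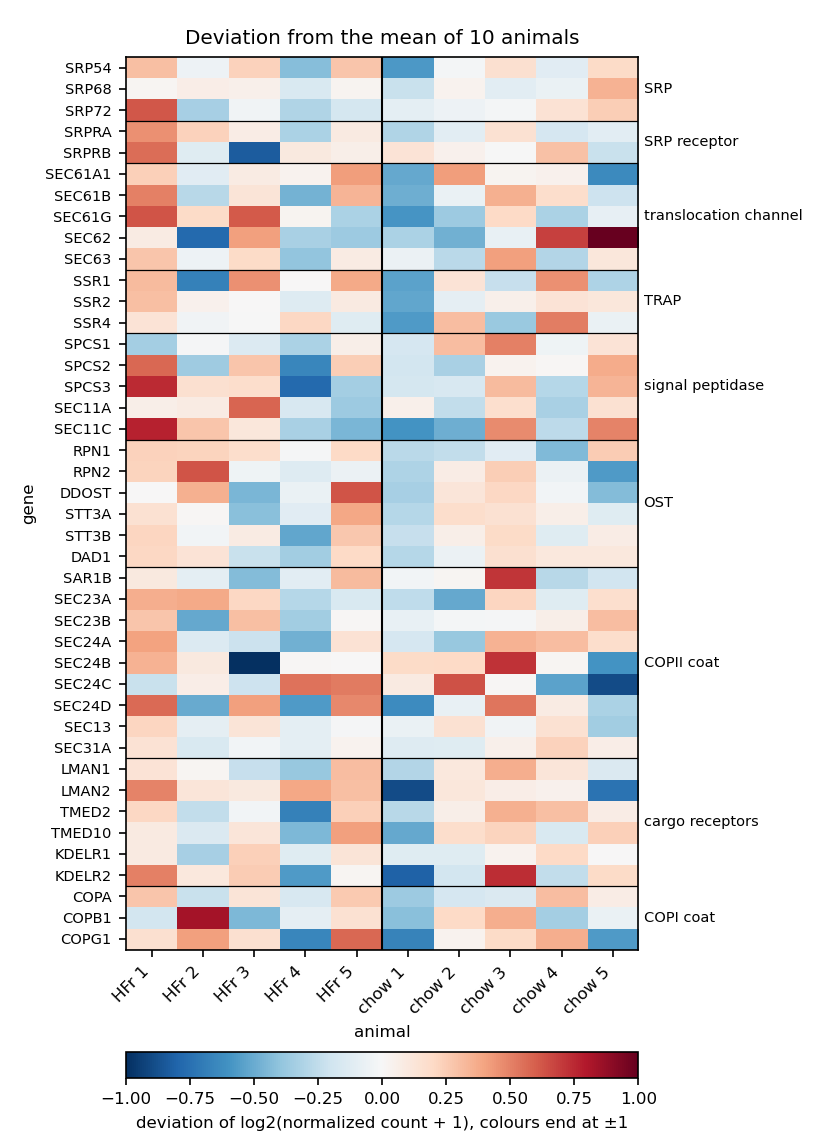
Deviation of log2(normalized count + 1) from the mean of the 10 animals (colour, ending at ±1) for each tested gene, by animal, with the diets split by the vertical line. HFr 1 is above the mean for 39 of 42 genes and chow 1 for 4, and HFr 4 for 8, while HFr 5 and chow 3 are above it for 32.

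The median fold change and its sign count therefore rested on single animals. Without HFr 1, only 18 of 43 genes were higher on HFr and the median log2 fold change was -0.011. Without chow 1, it was 23 of 43 with a median of 0.011, and without HFr 4 it was 33 of 43 with 0.14. The summed hepatocyte markers were lowest in chow 1 (40556) and highest in chow 3 (81537) and HFr 5 (74851). They were 62421 in HFr 1, 51404 in HFr 4 and 49678 in HFr 3, whose genes were not low (mean deviation 0.023). The mitochondrial percent was 57.1 in chow 1, 43.02 in chow 3, 61.6 in HFr 1, 62.2 in HFr 4 and 44.03 in HFr 5. Their part in the pattern was not tested.

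Pairs of related genes were compared as a ratio of counts within each animal, which does not depend on library size. Of 8 pairs listed, 7 could be tested. The log2 ratio of LMAN1 to LMAN2 was -0.19, 0.066, -0.16, -0.61 and 0.17 in HFr 1 to 5, and 0.79, 0.16, 0.47, 0.25 and 0.78 in chow 1 to 5. Each of the HFr animals lay under the mean of chow, and only HFr 5 overlapped the chow range. Its mean was -0.14 ± 0.30 (SD, n = 5) on HFr and 0.49 ± 0.29 (SD, n = 5) on chow. The difference of -0.63 had p = 0.0159 in a two-sided exact permutation test, and 0.111 after Benjamini-Hochberg adjustment over the 7 pairs. It kept p between 0.0159 and 0.0397 in the exact test with any 1 animal left out. This pair contains LMAN2, whose difference was already known when the pairs were listed, so it adds no independent support. No pair passed after adjustment. The other 6 pairs had unadjusted exact permutation p from 0.222 (SEC23A to SEC23B, difference 0.32) to 0.992 (STT3A to STT3B, difference 0.00042).

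**Figure D4:**
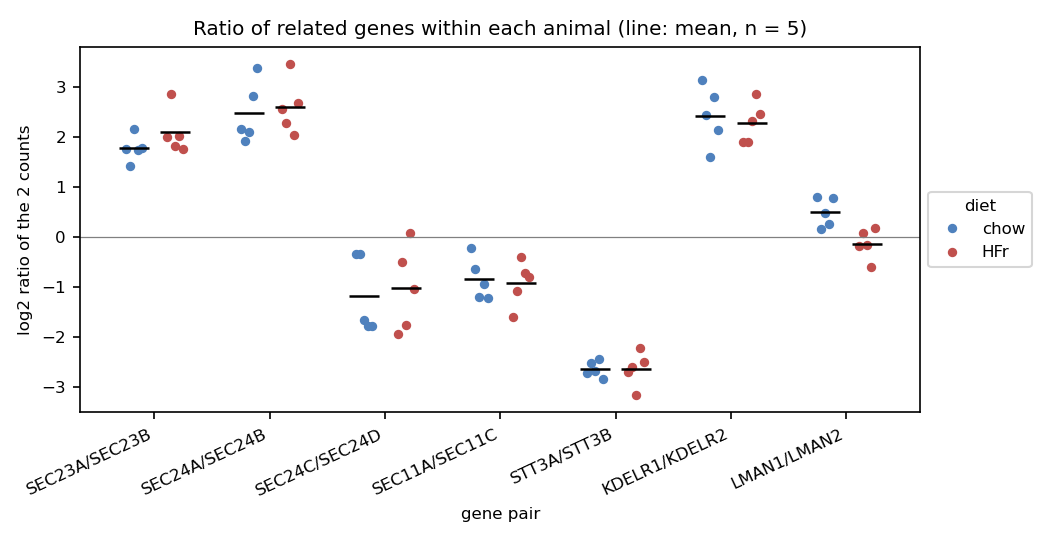
Log2 ratio of the counts of 2 related genes in each animal, by pair and diet (points), with the mean of 5 animals as a line. The LMAN1 to LMAN2 ratio is lower on HFr (mean -0.14) than on chow (mean 0.49), and the other 6 pairs overlap widely.

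Other genes of the pathway were read from a list of 121, of which 110 were found and 76 tested. Of these, 51 were higher and 25 lower on HFr, where 49.8% of all tested transcripts were higher, with a median log2 fold change of 0.082. Single animals weighed on these genes too, with 68.4% above their own mean in HFr 1 and 28.9% in chow 1. How far the count of signs rested on such animals was not tested. A single gene of the 76, higher on HFr, had an unadjusted p under 0.05 (1.32%, against 2.06% of all tested transcripts). ALG12, a mannosyltransferase that builds the sugar tree, had 4.08 ± 0.871 (SD, n = 5) normalized counts on HFr and 1.87 ± 0.945 (SD, n = 5) on chow. This difference of 1.01 on the log2 scale was estimated from only 1 to 22 counts per animal (standard error 0.36, edgeR's unadjusted p = 0.0133, adjusted p = 0.9996). By list, 6 of 10 tested genes of translocation, 2 of 3 accessory to OST, 12 of 17 of sugar tree assembly, 6 of 8 of sugar trimming, 7 of 10 accessory to COPII, 8 of 11 of tethering and fusion, 6 of 10 accessory to COPI and 4 of 7 other cargo receptors were higher on HFr.

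Regulators of ER capacity, from a list made with earlier results of these data known, gave a mixed picture. None passed adjustment. Of those tested, only HSPA5 had an unadjusted p under 0.05 in edgeR, where 4.29% of all tested transcripts did in either direction. HSPA5, which encodes the ER chaperone BiP, had 157 ± 57.01 (SD, n = 5) normalized counts on HFr and 105 ± 18.3 (SD, n = 5) on chow. This was a difference of 0.59 on the log2 scale (standard error 0.25) with edgeR's unadjusted p = 0.0348 and adjusted p = 0.9996, but the two-sided exact permutation test gave p = 0.127. XBP1, a transcription factor that induces many genes of this pathway, had 351 ± 138 (SD, n = 5) on HFr and 403 ± 241 (SD, n = 5) on chow, a difference of -0.20 on the log2 scale with a standard error of 0.36. The chow mean of XBP1 was raised by chow 3 (820), against 224 to 385 in the other chow animals. XBP1 was next highest in HFr 5 (551) and lowest in HFr 4 (188) and chow 1 (224). HSPA5 was highest in HFr 5 (225) and HFr 1 (197.6) and lowest in HFr 4 (78.6) and chow 1 (90.3), which had the lowest mean deviation of the pathway genes after TMM scaling but, for chow 1, not the lowest share of nuclear counts. CREB3L3, a liver factor activated by ER stress, had 4.56 ± 1.14 (SD, n = 5) and 2.48 ± 1.48 (SD, n = 5) (log2 fold change 0.79, standard error 0.38, edgeR's unadjusted p = 0.0545, adjusted p = 0.9996). All 5 HFr animals were above its chow mean, and the two-sided exact permutation test gave p = 0.0397. ERN1, ATF4 and EIF2AK3, of the unfolded protein response, had means of 30.2, 213.5 and 11.7 on HFr and 27.5, 236 and 9.54 on chow. Their log2 fold changes were 0.12, -0.14 and 0.27 (standard errors 0.17, 0.17 and 0.20), with edgeR's unadjusted p = 0.490, 0.405 and 0.198. ATF6, CREB3L1 and CREB3L2 had too few counts to be tested. Transcript counts do not measure how active these regulators were.

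SEC62 was high in the libraries with most mitochondrial counts, which was noticed in its values and then examined in a fit that was added for it. The fit held diet and the mitochondrial percent, and its slope is the log2 change per 10 percentage points. For SEC62 the slope was 0.36 (standard error 0.083, edgeR's unadjusted p = 0.00081), but its adjusted p was 0.0785, and 0.0954 without mitochondrial transcripts. With 1 animal left out the slope ran from 0.29 to 0.39 and never passed adjustment. No member had an adjusted p under 0.05, against 0.528% of tested transcripts rising and 0.201% falling. At an unadjusted p under 0.05, SEC62 was the only 1 of 42 to rise, against 6.3% of transcripts, and 3 fell, against 6.47%. These were COPB1 (slope -0.25), DDOST (-0.19) and SEC24C (-0.26). Shares near the background give no result about these genes.

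**Figure D5:**
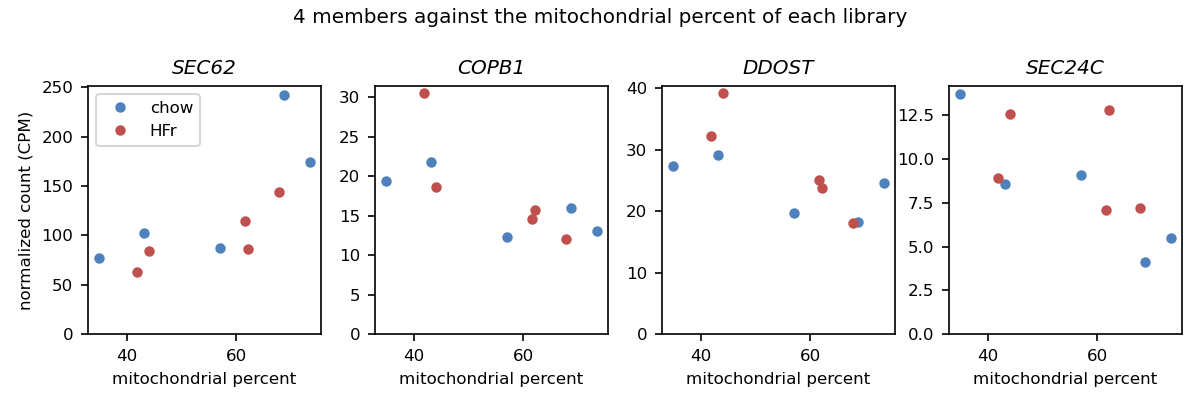
Normalized count (CPM) of 4 genes against the percent of counts on mitochondrial transcripts in each of the 10 libraries, coloured by diet. SEC62 is highest in chow 5 and chow 4, at 68.7% and 73.6%, and COPB1, DDOST and SEC24C have negative slopes, but no slope passed adjustment.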

How the data were processed

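Liver RNA of 10 vervet monkeys (5 HFr, 5 chow), grouped by the labels, was sequenced by the authors as 100-base paired-end reads of stranded TruSeq libraries. Reads of Phred 30 or more were kept and aligned to ChlSab1.1 with Ensembl release 93, and the submitters' processing notes name CASAVA 1.8, FastQC, STAR 2.5.3a and Partek. The authors deposited estimated counts per transcript, made by expectation-maximization and unnormalized, in which 96.0% of values were exactly whole (tolerance 0) among transcripts with a count in any animal. They also deposited TMM-normalized signal values, which within an animal were a constant multiple of the counts (within 0.00086%) and were used only in alternatives. Strand use in counting was not given in the sources used here.

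Counts were rounded, filtered with filterByExpr (minimum count 10, minimum total 15) and tested with edgeR 4.0.16's quasi-likelihood test in R 4.3.3 with a model of diet alone. The TMM factors were 0.608 to 1.48 and the biological coefficient of variation 29.0%. The standard error is the fold change divided by the square root of F, and p-values were adjusted by Benjamini-Hochberg over 7948 transcripts. Library sizes were first summed after the filter. The full totals replaced them after those values were seen, and the first setting is kept as an alternative. Exact permutation tests used all 252 assignments of animals to diets, on log2(normalized count + 1) for single genes and with a pseudocount of 0.5 in ratios. Deviations used log2 with a pseudocount of 1.

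Full values are given for members with an unadjusted p under 0.05, members without overlap between diets, and the member of each role group with the most counts or the largest fold change. The members, their role groups, the pairs and the other gene lists were made with earlier results of these data known. Companions with an unadjusted p under 0.05 are named, up to 5 in each direction. On simulated data with 7907 genes and 5 animals against 5, 88% of genes changed by 1 and 99% changed by 2 on the log2 scale had an unadjusted p under 0.05, and 42% and 95% passed adjustment. Of unchanged genes, 5.18% had an unadjusted p under 0.05 and 0.19% passed adjustment. Changes as small as those estimated for the 42 genes (-0.47 to 0.52) were not simulated, so the simulation gives no power at that size. Alternatives were DESeq2 1.42.0, limma 3.58.1, the study's equal-variance test, other normalizations and filters, counts summed by gene, a replicate block, the mitochondrial percent as a covariate, and each animal left out. They share the same animals, and counts summed by gene nearly repeats the reported fit, since each member found has 1 transcript. The slope on the mitochondrial percent was added after the values were seen. Transcript lengths and sequences were not used here, and coordinates are counted from 1 as in the deposited tables, with the listed stop left out.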

Additional observations from a re-analysis of the deposited data

Results flagged for a closer look

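In 4 of the 84 groups formed by 42 genes and 2 diets, 1 animal stood apart from the other 4 by Dixon's criterion at the 95% level (critical value 0.71 for 5 animals). Chance does this for about 1 in 20 groups, so 4 of 84 is close to that rate. RPN1 had 66.6 normalized counts in HFr 4, against 75.7 to 79.0 in the other HFr animals. SRP68 was also low in HFr 4, with 24.5 against 27.7 to 28.7. SRP72 had 54.6 in HFr 1, where the other HFr animals had 27.9 to 34.5. SAR1B had 141 in chow 3, where the other chow animals had 70.3 to 86.6.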

How the results depend on the processing

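None of the 42 genes had an adjusted p under 0.05 in any of the 23 alternatives, and at most 3 were higher and 1 lower at an unadjusted p under 0.05. Against 2 genes higher in the reported analysis, there was 1 under DESeq2, RLE size factors, removal of mitochondrial transcripts, the mitochondrial covariate and the replicate block, 0 with library size only, and 0 to 2 with 1 animal left out (0 without HFr 1 and 0 without chow 1). The number lower was 0 to 1 with 1 animal left out. The labels do not say whether same-numbered animals were paired. In expression, same-numbered animals correlated between -0.29 and 0.099, and no animal correlated best with its own number. Such correlations cannot exclude a matched assignment. Under the replicate block no paralogue ratio had an unadjusted exact p under 0.05, against 1 as reported (LMAN1 to LMAN2, which did not pass adjustment). The smallest possible exact p under the block is 0.0625, so that count could only be 0 and shows nothing about the processing. Library sizes summed after the filter, the setting of the first run, gave the same 2 genes, LMAN2 and SEC61G. Companion genes under 0.05 numbered 1 as reported, 0 with library size only or with at least 10 counts in every animal, 2 with the equal-variance test, and 1 to 2 with 1 animal left out. The median log2 fold change ran from -0.011 to 0.14 with 1 animal left out. The sign turned in some of these runs, within ranges of -0.27 to 0.022 for SRP72, -0.093 to 0.17 for SSR4, -0.046 to 0.13 for STT3B and -0.092 to 0.0076 for SEC31A. The cause was not tested. RPN1 came under 0.05 in 4 alternatives (the equal-variance test, limma with either pseudocount, and without chow 5). Over all transcripts, the split of 164 higher and 177 lower became 225 and 118 with the equal-variance test, 229 and 111 with limma at a pseudocount of 1, and 54 and 70 with library size only. DESeq2 gave 2 transcripts and library size only gave 1 with an adjusted p under 0.05, none among these genes. With nuclear counts from 864571 to 2657103 per animal, SPCS3, COPB2, ALG12 and CREB3L3 rest on few counts, and intervals of counting error were not computed.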
